A study of Rattus norvegicus with 11 samples.

Results

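Out of 11 cultures of sensory neurons from rat dorsal root ganglia (DRG), the 8 that were treated were divided into sides chosen by their own level of Scn10a, which encodes the nociceptor sodium channel Nav1.8. Cultures with at least 70 FPKM (fragments scaled by transcript length and by all mapped fragments of a library) of Scn10a formed a high side of 4, and those under 70 FPKM a low side of 4. The high side held SCCM replicates 2 and 3 and PGE2 replicates 3 and 4, and the low side SCCM replicates 1 and 4 and PGE2 replicates 1 and 2. Values of each side are given in that order throughout. Each side therefore has 2 cultures of each treatment, and the sides are not groups of the study's design. SCCM is Schwann cell conditioned medium, and PGE2 is prostaglandin E2, used at 1 µM. Per the labels, all neurons came from wild type Sprague-Dawley rat embryos at embryonic day 15, were purified by immunopanning, and were treated overnight from day 13 in vitro until RNA was taken on day 14. The other 3 cultures were untreated. Between 10 and 18 embryos were pooled for an experiment and 1 pregnant rat counted as 1 biological replicate. The cultures are mixed populations of embryonic sensory neurons, so in these bulk samples fewer cells of a type and less RNA per cell cannot be told apart.

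Nav1.8 carries much of the inward current of the action potential in nociceptors, the sensory neurons that report painful stimuli, and its transcript appears as these neurons mature. Cultured sensory neurons are also known to switch on injury genes after axotomy, genes induced by low oxygen through the factor HIF-1, and genes of the integrated stress response when protein synthesis or the endoplasmic reticulum is disturbed. PGE2 is known to act on sensory neurons through the receptors EP1 to EP4, some of which raise cyclic AMP.

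Scn10a chose the sides, so its values are a description. It measured 72.79, 101.25, 83.68 and 89.84 FPKM on the high side and 32.89, 62.41, 18.14 and 32.89 FPKM on the low side. The cultures nearest the threshold were both SCCM cultures, replicate 2 at 72.79 FPKM just inside and replicate 4 at 62.41 FPKM just outside. Untreated replicates 1 to 3 had 16.18, 31.76 and 12.07 FPKM. Nefh, the heavy neurofilament subunit of large-calibre axons, measured 129.43, 131.33, 93.86 and 145.34 FPKM on the high side against 40.10, 56.08, 22.78 and 26.99 FPKM on the low side. Adm, which encodes the hypoxia-induced peptide adrenomedullin, went the other way, at 0.15, 0.29, 0.16 and 0.15 FPKM against 18.10, 5.48, 9.63 and 51.09 FPKM. For neither gene did the sides overlap, but both were chosen with the split in view, so their values are a description too. Tubb3, a neuronal tubulin, measured between 827.66 and 1658.92 FPKM in all 11 libraries, and the sides differed by −0.03 (SE 0.20) on the log2(FPKM + 1) scale.

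**Figure D1:**
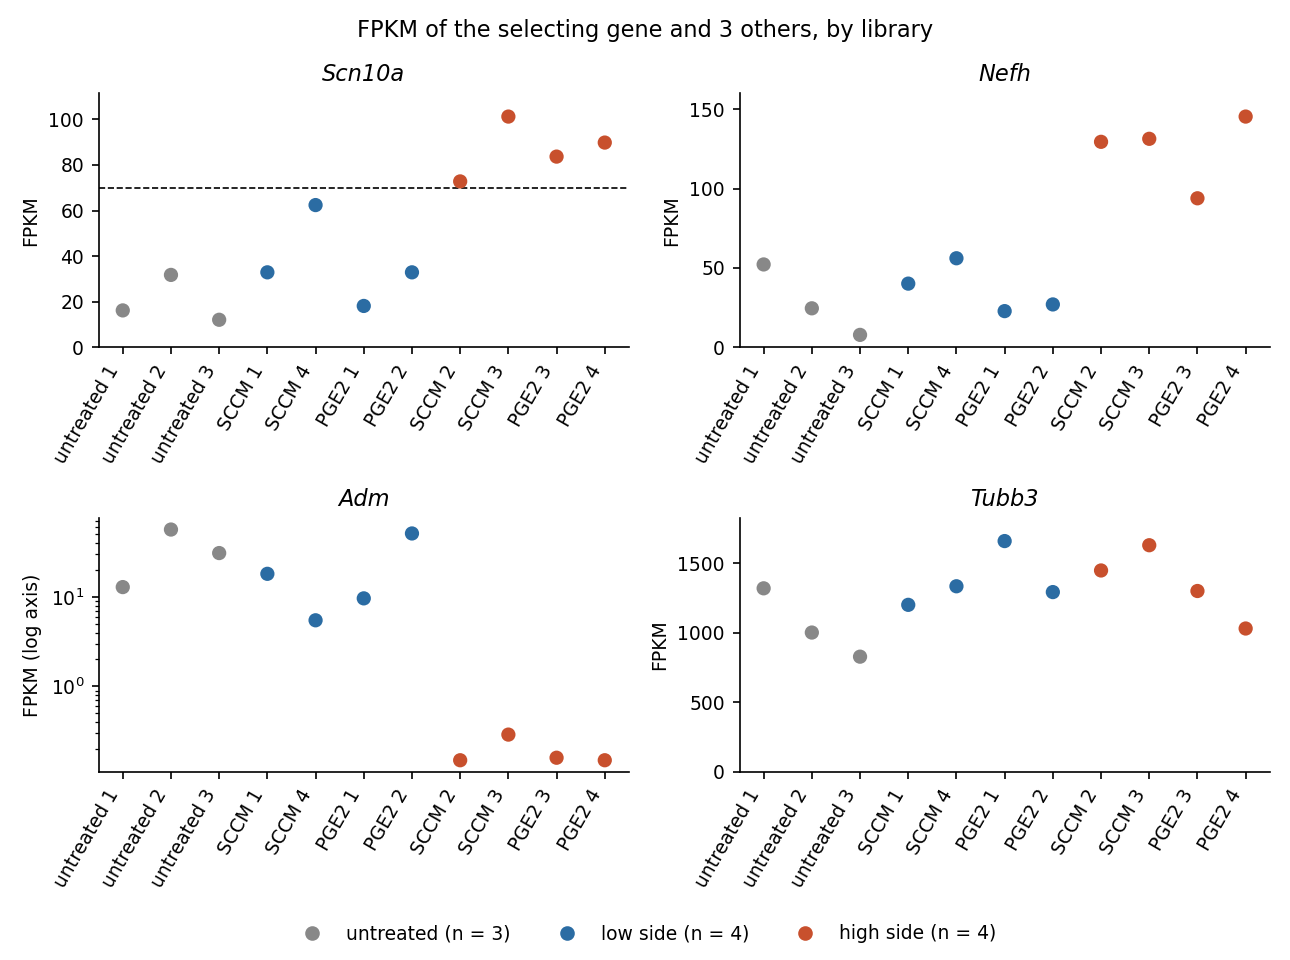
FPKM of Scn10a, Nefh, Adm (log axis) and Tubb3 in each of the 11 libraries, with 1 point per library coloured by side and the dashed line at 70 FPKM. Nefh lies between 93.86 and 145.34 FPKM in the 4 high-side libraries and Adm under 0.3 FPKM, while Tubb3 overlaps between the sides.

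The libraries of the sides also differed in other measures. Genes above 0 FPKM numbered 15664 to 15946 on the high side and 15954 to 17137 on the low side. Mitochondrially encoded genes held 8.06, 3.71, 7.86 and 8.14% of FPKM on the high side and 4.09, 10.9, 5.36 and 3.20% on the low side. Relative depth, estimated from the spacing of low FPKM values, differed by at most 1.315-fold over the 11 libraries. Read totals are not given, so the depth itself is unknown. Of 24 glial markers with a row, 13 stayed under 1 FPKM in every library, and the summed level of the glial list was 387.68 to 514.38 FPKM on the high side and 340.89 to 428.8 FPKM on the low side. That sum includes Ngfr, also on the neurotrophin receptor list, at 116.95 to 260.02 FPKM against 44.62 to 138.05 FPKM. It also includes Scn7a, also on a sodium channel list, at 54.43 to 80.05 FPKM against 20.14 to 32.01 FPKM. The sum is therefore not a measure of glia alone. The defining Schwann cell gene Sox10 was at most 0.07 FPKM. Of 20 macrophage markers, 18 stayed under 1 FPKM in every library, and without Cd68 their sum was 0.22 to 0.7 FPKM on the high side and 0.72 to 2.49 FPKM on the low side. The part of these measures in the differences between the sides was not tested.

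**Figure D2:**
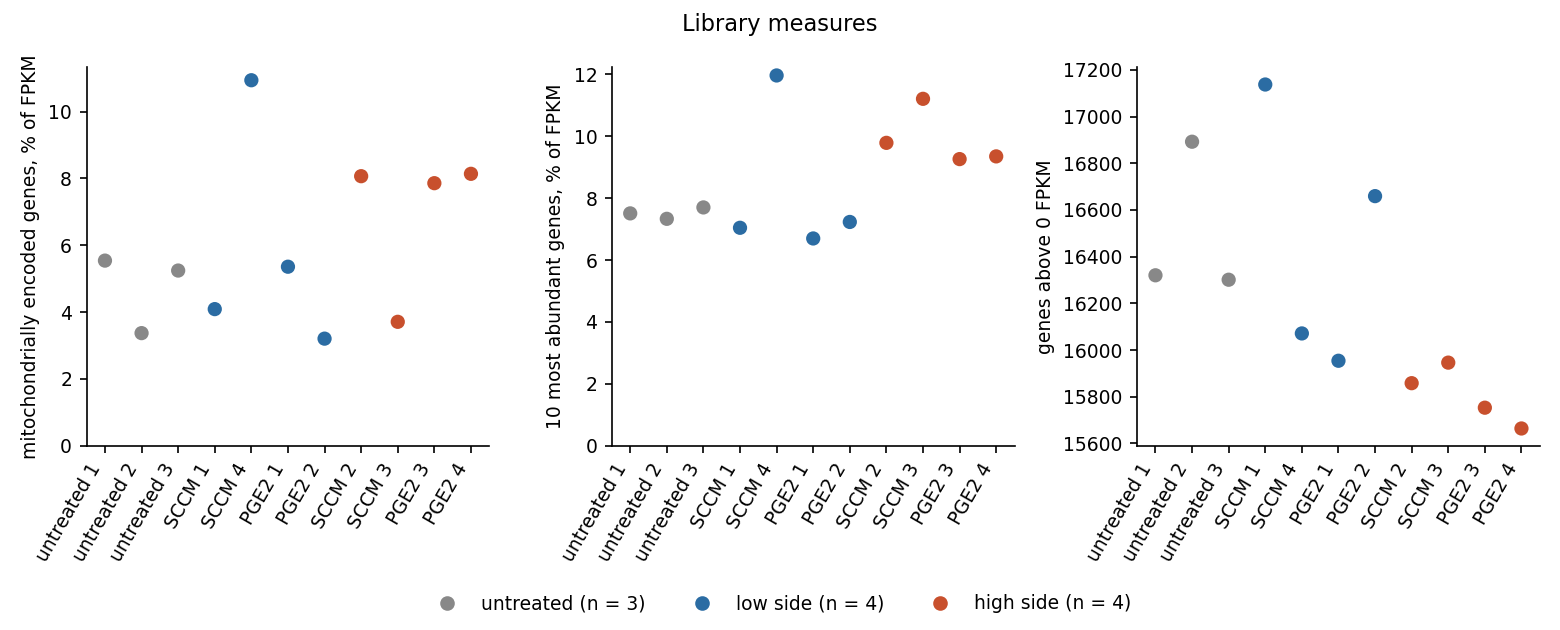
Share of FPKM in mitochondrially encoded genes, share in the 10 most abundant genes, and number of genes above 0 FPKM, with 1 point per library. High-side libraries had 15664 to 15946 genes above 0 FPKM, fewer than any low-side library, while the mitochondrial share of SCCM replicate 3 was 3.71% and that of SCCM replicate 4 was 10.9%.

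Beyond Scn10a, genes called higher on the high side included some of the channels and receptors of excitable neurons, and genes called lower included most hypoxia and glycolysis genes and a smaller share of injury, stress and immediate early genes. The difference was computed as the high mean minus the low mean of log2(FPKM + 1), with treatment in the model, for the 11970 genes whose mean reached 1 FPKM in the 8 treated libraries. A gene was called, as a description without a p-value, if the difference was at least 1 in size and all 4 libraries of 1 side lay above all 4 of the other. By this rule 170 genes (1.42%) were higher on the high side and 692 (5.78%) were lower. Without the demand on size, 771 genes (6.44%) lay wholly above and 2720 (22.7%) wholly below. The median difference over all genes was −0.21, so a lower mean was the more common direction, and 80.3% of the calls were lower. The share of all genes with lower means was not counted. Counts of higher or lower means in a list therefore have no such share beside them. With median-ratio scaling, which puts the median difference at 0.0187, the calls were 385 higher and 411 lower (51.6% lower), and with quantile normalization 348 and 379 (52.1% lower). Both scalings kept all 170 of the genes called higher, and kept 411 and 378 of those called lower. Without SCCM replicate 4 the calls were 265 and 1061. The difference was at least 1 in size within SCCM and within PGE2 for 93 of the 170 and 448 of the 692.

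**Figure D3:**
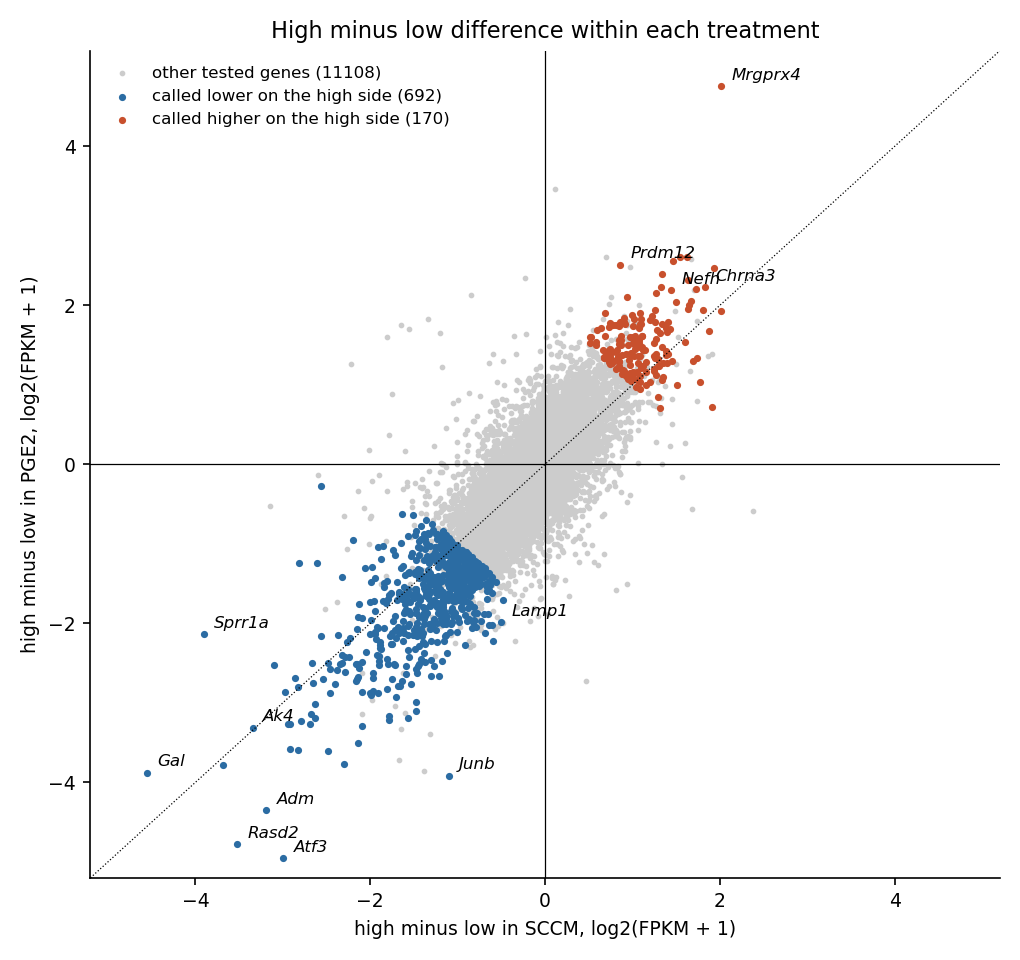
High minus low difference in log2(FPKM + 1) within SCCM (horizontal axis) and within PGE2 (vertical axis), with 1 point per tested gene, each mean taken over 2 libraries. The 170 genes called higher lie in the upper right and the 692 called lower in the lower left, the dotted line marks equal differences, and Mrgprx4, at 2.01 in SCCM and 4.76 in PGE2, lies far above it.

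Sodium channels came first among the excitability genes. All 3 sensory channel genes were called higher, against 1.42% of all genes, with Scn10a fixed by the selection. Scn9a, which encodes Nav1.7, measured 44.03, 46.85, 39.02 and 50.24 FPKM on the high side and 17.11, 29.08, 12.30 and 10.51 FPKM on the low side, a difference of 1.43 (SE 0.23). Scn11a, encoding Nav1.9, was at 3.65 to 5.24 FPKM against 0.88 to 2.76 FPKM, a difference of 1.08 (SE 0.22). Of 9 other sodium channel subunit genes, 3 were called higher and 0 lower (median 0.586). They were Scn8a, the channel of nodes of Ranvier, at 1.59 (SE 0.20), the sodium sensor Scn7a at 1.34 (SE 0.19) and Scn1a at 1.22 (SE 0.20). Scn7a is also on the glial list. Scn2a and Scn3a, which are abundant in immature neurons, differed by 0.45 (SE 0.19) and 0.31 (SE 0.21), and in Scn3a the highest value was that of the low-side culture SCCM replicate 4 (5.13 FPKM).

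Some potassium and calcium channel genes were called higher, though most members were not. Of 23 voltage-gated potassium channel genes, 5 were called higher, against 1.42% of all genes, and 0 lower (median 0.539, against −0.21 for all genes). The count was 8 with median-ratio scaling and 10 with quantile normalization, scalings under which more of all genes were called higher too. Kcna2, which encodes the axonal channel Kv1.2, measured 35.69, 32.70, 36.96 and 45.42 FPKM against 6.03, 16.35, 9.67 and 8.57 FPKM, a difference of 1.86 (SE 0.26). The M-current subunit gene Kcnq5 differed by 1.48 (SE 0.17). Kcnip3 and Kcnab2, both encoding auxiliary subunits, differed by 1.29 (SE 0.21) and 1.10 (SE 0.21). Of 15 calcium channel genes, 14 had higher means and 4 were called (median 0.504), or 6 and 7 with those scalings. These were Cacng2 at 1.32, the auxiliary subunit gene Cacna2d2 at 1.14, and the pore subunit genes Cacna1d at 1.08 and Cacna1a at 1.04. In this list SCCM replicate 4 (mean log2(FPKM + 1) of 3.44) stood nearer the high side (3.62 to 3.73) than the other low-side cultures did (2.80 to 2.98). Of 8 two-pore leak and pacemaker channel genes, 4 had higher and 4 lower means and 0 were called. With either of those scalings 2 of the 8 were called higher.

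Receptors for transmitters had calls in 1 direction, and channels for stimuli in both. Of 30 transmitter receptor genes, 5 were called higher, against 1.42% of all genes, and 0 lower, against 5.78% (median 0.558). With either other scaling 9 were called higher. Chrna3, the alpha-3 subunit of nicotinic receptors, measured 20.30, 17.69, 22.41 and 27.38 FPKM on the high side and 4.29, 4.94, 3.28 and 6.04 FPKM on the low side, a difference of 2.03 (SE 0.19). Its partner subunit gene Chrnb4 differed by 1.39 (SE 0.24) and the GABA-B receptor gene Gabbr2 by 1.06 (SE 0.19). Among 14 transduction channel genes, 8 had higher and 6 lower means (median 0.0758), 3 were called higher and 1 lower. Among them, Trpm3, a heat-activated channel, differed by 1.86 (SE 0.23) and Piezo2, the channel of touch and proprioception, by 1.53 (SE 0.19), whereas the acid-sensing channel gene Asic2 was lower, at 1.21 to 1.60 FPKM against 2.92 to 5.04 FPKM. Its difference only just reached the size required and was −0.82 with median-ratio scaling and −0.70 with quantile normalization, so that call was lost under both. Of 24 genes of cyclic AMP and PKA signalling, 2 were higher, the adenylate cyclase gene Adcy1 at 1.79 (SE 0.17) and Rapgef4 (Epac2, a cyclic AMP sensor) at 1.50 (SE 0.18), and 1 was lower, the phosphodiesterase gene Pde8a at −1.25 (SE 0.22). The counts of that list were 4 and 1 with median-ratio scaling and 3 and 0 with quantile normalization. Of 36 synaptic vesicle genes, 26 had higher means and 2 were called higher, the active zone gene Pclo at 1.46 and the calcium sensor gene Syt2 at 1.16, with the vesicle GTPase gene Rab3b lower at −1.01. With median-ratio scaling 10 of the 36 were called higher and 0 lower, and with quantile normalization 5 and 0, so the call of Rab3b was lost under both.

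Genes that mark sensory neuron types did not all differ in 1 direction. Mrgprx4, of the Mas-related receptor family found in itch and pain neurons, measured 59.01, 107.26, 34.82 and 105.81 FPKM on the high side and 25.38, 14.11, 0.58 and 2.31 FPKM on the low side. Its difference of 3.39 (SE 0.60) was the largest among genes called higher with a high-side mean of at least 10 FPKM. Mrgprx3 differed by 1.77 (SE 0.23). Prdm12, a regulator of nociceptor identity, measured 117.36, 127.72, 198.13 and 164.36 FPKM against 55.70, 80.54, 22.58 and 41.96 FPKM, a difference of 1.69 (SE 0.35), and Etv1, a factor of proprioceptors, differed by 1.32 (SE 0.26). In contrast Runx1, a factor of non-peptidergic nociceptors, was lower at −1.20 (SE 0.24), a call lost with quantile normalization. Nhlh1, a factor of newly born neurons, was also lower, at −2.81 (SE 0.24), and at −2.57 with quantile normalization. Of 10 myelinated mechanoreceptor and proprioceptor genes, 4 had higher and 6 lower means (median −0.307). In that list 2 were called higher, Etv1 and Nefh, against 1.42% of all genes, and 1 lower, against 5.78%. Among 11 peptidergic nociceptor genes, 5 had higher and 6 lower means (median −0.521). In this list 1 was called higher, Chrna3, against 1.42% of all genes, and 3 lower, against 5.78%. Gal, which encodes the neuropeptide galanin, measured 0.43, 5.02, 0.47 and 0.88 FPKM on the high side and 49.47, 92.80, 33.17 and 16.45 FPKM on the low side, a difference of −4.21 (SE 0.45). Neurotensin (Nts) differed by −2.81 (SE 0.19) and Adcyap1, which encodes the peptide PACAP, by −2.03 (SE 0.32).

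Hypoxia and glycolysis genes held the largest share of calls of any list with over 3 tested members. Of 35 members, 33 had lower means on the high side (median −1.42, against −0.21 for all genes). Wholly below the low side lay 30, against 22.7% of all genes, and 23 were called lower, against 5.78%. The counts called lower with median-ratio and quantile scaling were 21 and 22. Adm was chosen with the split in view, so it adds no support. Ankrd37, a hypoxia-induced ankyrin gene, measured 0.68, 0.51, 0.55 and 0.34 FPKM on the high side and 7.34, 16.39, 11.41 and 23.12 FPKM on the low side, a difference of −3.25 (SE 0.30). Slc2a1, the glucose transporter GLUT1, was at 4.17 to 13.94 FPKM against 40.83 to 67.35 FPKM, and P4ha2, a collagen prolyl hydroxylase gene, at 0.67 to 2.51 FPKM against 10.80 to 19.25 FPKM. The median difference of the list was −1.23 within SCCM and −1.59 within PGE2. SCCM replicate 4 was the low-side culture nearest the threshold by Scn10a. Its mean log2(FPKM + 1) of 5.36 for these genes lay with the other low-side cultures (5.39 to 5.78) and apart from the high side (3.77 to 4.19).

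Promoters are shown for 3 of these genes because the list moved together and HIF-1 binds a short core motif. The windows run from 250 bases before to 50 after the first start site listed per gene by RefSeq on GRCr8, not the build of the expression data, and capitals mark the core ACGTG or GCGTG on either strand, with overlapping matches merged.
Ankrd37, chr16:53001257-53001556, plus strand: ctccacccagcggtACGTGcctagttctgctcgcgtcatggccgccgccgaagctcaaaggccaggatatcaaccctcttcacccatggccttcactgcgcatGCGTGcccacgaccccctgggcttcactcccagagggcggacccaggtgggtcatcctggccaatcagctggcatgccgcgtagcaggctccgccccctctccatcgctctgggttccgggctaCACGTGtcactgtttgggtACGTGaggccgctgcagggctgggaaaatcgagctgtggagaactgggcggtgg
P4ha2, chr10:38743644-38743943, plus strand: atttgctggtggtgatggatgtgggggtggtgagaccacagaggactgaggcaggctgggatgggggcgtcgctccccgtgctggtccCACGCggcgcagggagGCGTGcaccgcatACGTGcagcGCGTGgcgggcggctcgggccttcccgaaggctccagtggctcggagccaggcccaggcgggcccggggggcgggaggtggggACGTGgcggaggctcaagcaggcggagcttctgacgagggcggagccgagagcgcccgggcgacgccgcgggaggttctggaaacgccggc
Adm, chr1:174179950-174180249, plus strand: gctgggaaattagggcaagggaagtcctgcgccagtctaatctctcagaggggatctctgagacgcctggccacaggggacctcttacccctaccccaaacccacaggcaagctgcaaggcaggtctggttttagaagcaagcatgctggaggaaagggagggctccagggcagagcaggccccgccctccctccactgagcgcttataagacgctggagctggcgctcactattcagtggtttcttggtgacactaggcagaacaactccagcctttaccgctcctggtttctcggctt
The window of Ankrd37 holds 5 matches, that of P4ha2 holds 5 and that of Adm holds 0. A window was found for 20 of the 23 genes called lower, and 13 of the 20 (65.0%) held the core, as did 63.8% of the windows found for all tested genes (8665) and 42.9% of all 27457 windows. The share in the list was thus near that of all tested genes. A match is a description of the letters and not a bound site.

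Some injury and immediate early genes were called lower on the high side. Of 17 axotomy and regeneration genes, 14 had lower means and 7 were called lower, against 5.78% of all genes, with 0 called higher (median −0.982). With either other scaling 6 were called lower. The 7 include Gal, which is also on the peptidergic nociceptor list. Atf3, a transcription factor induced by nerve injury, measured 3.76, 8.38, 2.53 and 1.02 FPKM on the high side and 48.23, 56.66, 115.13 and 58.00 FPKM on the low side, a difference of −3.97 (SE 0.44). The arginase gene Arg1 differed by −3.73 (SE 0.57) and the injury-induced gene Sprr1a by −3.02 (SE 0.36). Of 22 immediate early and activity genes, 19 had lower means and 7 were called lower (median −1.23), again against 5.78% of all genes, or 5 with either other scaling. Jun measured 40.13, 78.84, 28.39 and 32.03 FPKM against 121.53, 156.18, 116.99 and 92.34 FPKM. Egr1 differed by −2.90 (SE 0.75), Junb by −2.51 (SE 0.55) and the phosphatase gene Dusp4 by −2.19 (SE 0.38). SCCM replicate 4 did not lie with its side here, since its mean log2(FPKM + 1) over this list was 3.10, within the high-side range of 2.36 to 3.20 and under the other low-side cultures (3.68 to 4.60).

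Stress, cell death, cell cycle and lysosome genes also held calls on the lower end, to be read against the same 5.78% of all genes. Of 34 integrated stress and unfolded protein response genes, 29 had lower means and 7 were called lower (median −0.51), or 5 with median-ratio scaling and 6 with quantile normalization. Ddit3, the stress factor CHOP, measured 19.33, 22.27, 33.48 and 31.94 FPKM against 127.89, 37.07, 191.25 and 278.99 FPKM, so that SCCM replicate 4 was again near the high side. Gdf15, a stress-induced hormone, differed by −3.01 (SE 0.68), Ppp1r15a, which reverses translation arrest, by −1.87 (SE 0.35) and the chaperone cofactor gene Sdf2l1 by −1.67 (SE 0.22). Of 13 cell death and p53 genes, 5 were called lower (median −0.671), or 4 with either other scaling, including Tp53inp1 at −2.25 (SE 0.19), the BH3-only gene Pmaip1 at −2.16 (SE 0.34) and the cell cycle inhibitor Cdkn1a at −2.01 (SE 0.24). All 12 proliferation genes had lower means and 3 were called, Mcm6 at −1.75, Pcna at −1.31 and Plk1 at −1.09. With median-ratio scaling 1 of 11 tested was called, and with quantile normalization 4 of the 12 had higher means and 1 was called. Of 24 lysosomal and phagocytic genes, 5 were called lower (median −0.704), or 3 with either other scaling. Cd68, a lysosomal gene also on the macrophage list, measured 0.08, 0.08, 0.09 and 0.04 FPKM against 14.54, 0.37, 3.14 and 13.55 FPKM, and Gpnmb differed by −2.41 (SE 0.40).

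Immune and growth factor lists were short, and their counts called lower stand against 5.78% of all genes. Of 9 tested interferon and antigen presentation genes, 2 were called lower, the class I genes RT1-A2 at −2.58 (SE 0.21) and RT1-A1 at −1.31 (SE 0.33), whose near-identical copies make their values uncertain. In the cytokine list of 12, Junb (also on the immediate early list), Pim1 at −2.44 and Lif at −1.42 were lower. Cebpd was higher at 1.04. Of 10 TGF-beta and BMP genes, Tgfb3 at −2.13 and the BMP target Id1 at −1.53 were lower. The ERK feedback list of 15 had 3 called lower, among them Egr1 and Dusp4, which are also on the immediate early list. With median-ratio scaling 2 were called higher and 2 lower, and the median of −0.0273 became 0.176. With quantile normalization 1 was called higher and 2 lower.

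Metabolic genes outside glycolysis were mixed. Their counts stand against 1.42% of all genes called higher and 5.78% called lower, and both other scalings called more of all genes higher. Among 25 genes of cholesterol synthesis and sterol regulation, 2 were called higher (4 with either other scaling), among them the fatty acid synthase gene Fasn (1.33, SE 0.18), and 1 lower, the sterol exporter gene Abcg1 (−1.23, SE 0.15), whose call was lost with quantile normalization. Of 34 nuclear-encoded respiratory chain genes 0 were called, and their median of −0.0869 became 0.165 with median-ratio scaling. Of 13 mitochondrially encoded genes 0 were called. Their median difference was −0.183 within SCCM and 1.05 within PGE2, where SCCM replicate 3 was low and SCCM replicate 4 high.

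**Figure D4:**
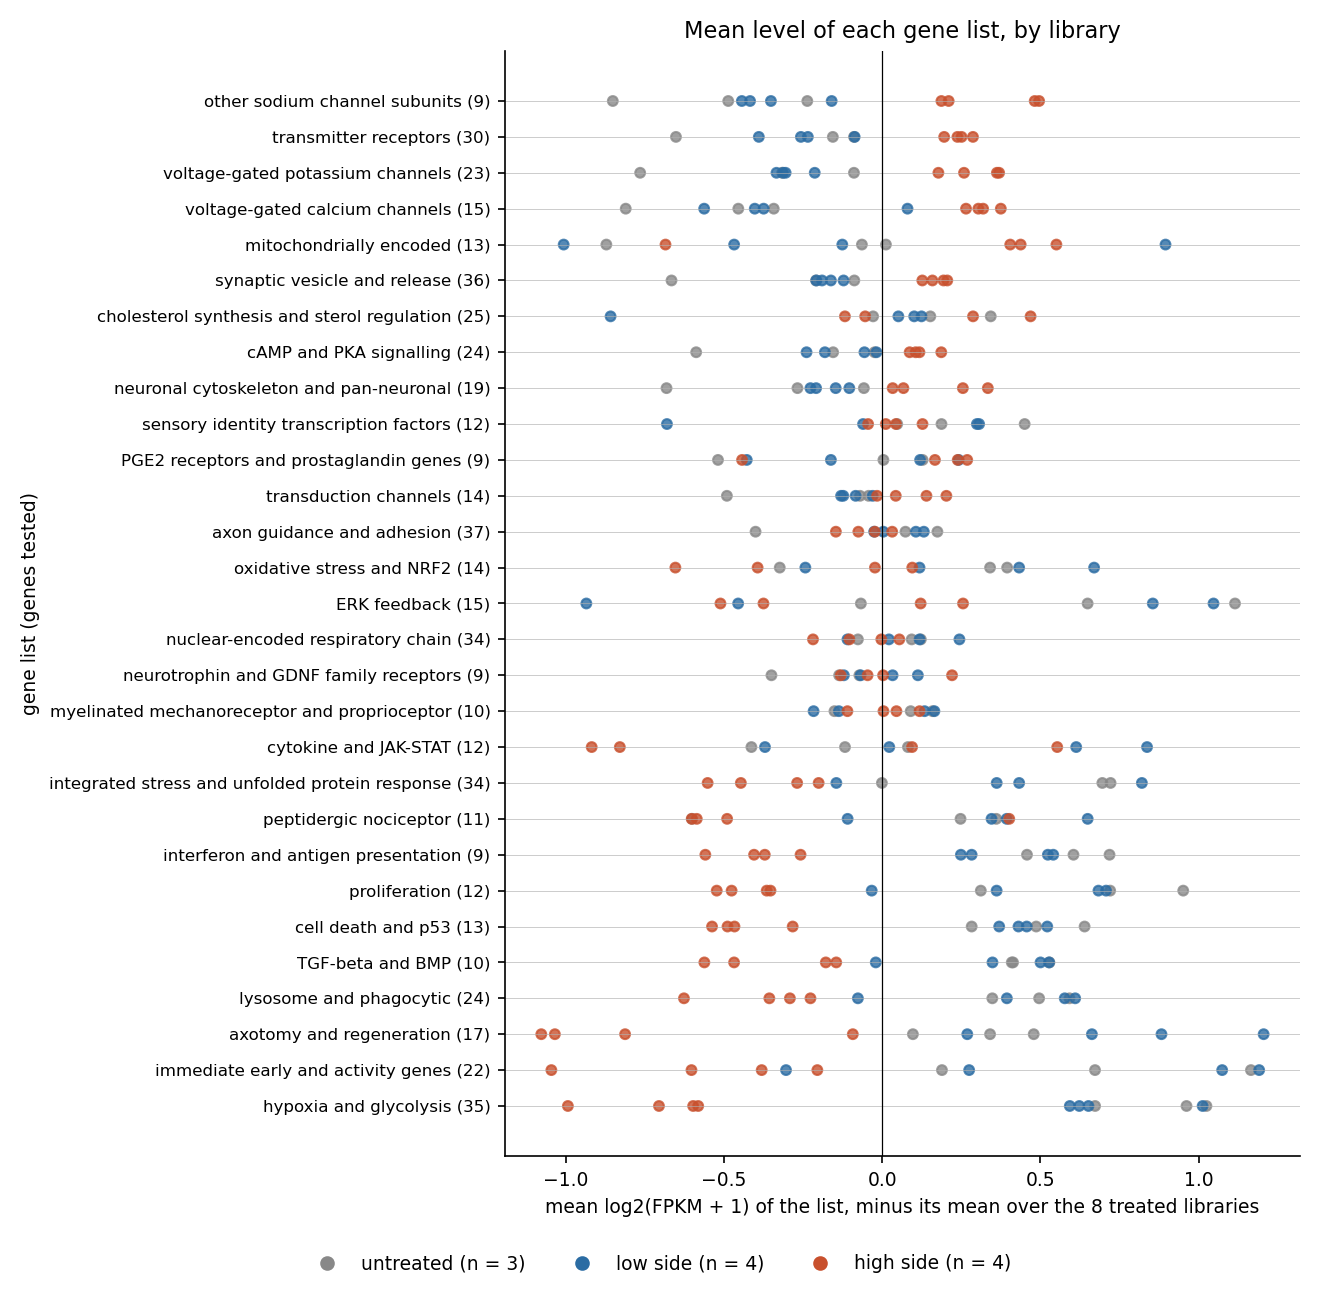
Mean log2(FPKM + 1) over the tested members of each gene list with at least 9, minus the mean of the 8 treated libraries, with 1 point per library. High-side libraries lie to the right for sodium, potassium and calcium channels and transmitter receptors and to the left for hypoxia and glycolysis, and the mitochondrially encoded list mixes the sides.

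The largest differences overall were mostly on the lower end. Besides Gal, Atf3, Adm and Arg1, they included Rasd2, a small GTPase gene, at 2.63, 1.68, 2.95 and 0.56 FPKM on the high side and 59.35, 20.31, 49.98 and 89.44 FPKM on the low side, a difference of −4.15 (SE 0.44). Ak4, a mitochondrial adenylate kinase gene, was at 1.27 to 2.54 FPKM against 18.99 to 34.82 FPKM, with a difference of −3.33 (SE 0.20). Emp3, a membrane protein gene, was at 6.95 to 17.77 FPKM against 72.13 to 151.23 FPKM. Txnip, which restrains glucose uptake, differed by −3.10 (SE 0.29), Niban2 by −3.21 (SE 0.33), Tmem86a by −3.04 (SE 0.27) and the lipid droplet gene Hilpda by −3.03 (SE 0.39). At the upper end Adam22, a synaptic receptor for LGI proteins, measured 56.92, 54.26, 49.02 and 54.81 FPKM against 13.29, 17.19, 12.50 and 12.96 FPKM, a difference of 1.88 (SE 0.13). Ahrr, the repressor of the aryl hydrocarbon receptor, differed by 2.20 (SE 0.42), the pseudokinase gene Trib2 by 2.07 (SE 0.37), the anoctamin gene Ano3 by 2.01 (SE 0.23), the thrombin receptor family gene F2rl2 by 1.97 (SE 0.45) and Syt15 by 1.97 (SE 0.47). AC125757.1 and AABR07020815.1, which the files name only so, differed by 2.11 and 1.97. Of the 862 called genes, 112 were in any of the 39 lists. The lists hold 805 genes, 766 of them with values, but not all of these passed the filter on mean FPKM. The share of tested genes that is in a list was not computed, so the 112 have no like share beside them. The lists were also chosen with earlier results known, so the count of 112 is a description.

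**Figure D5:**
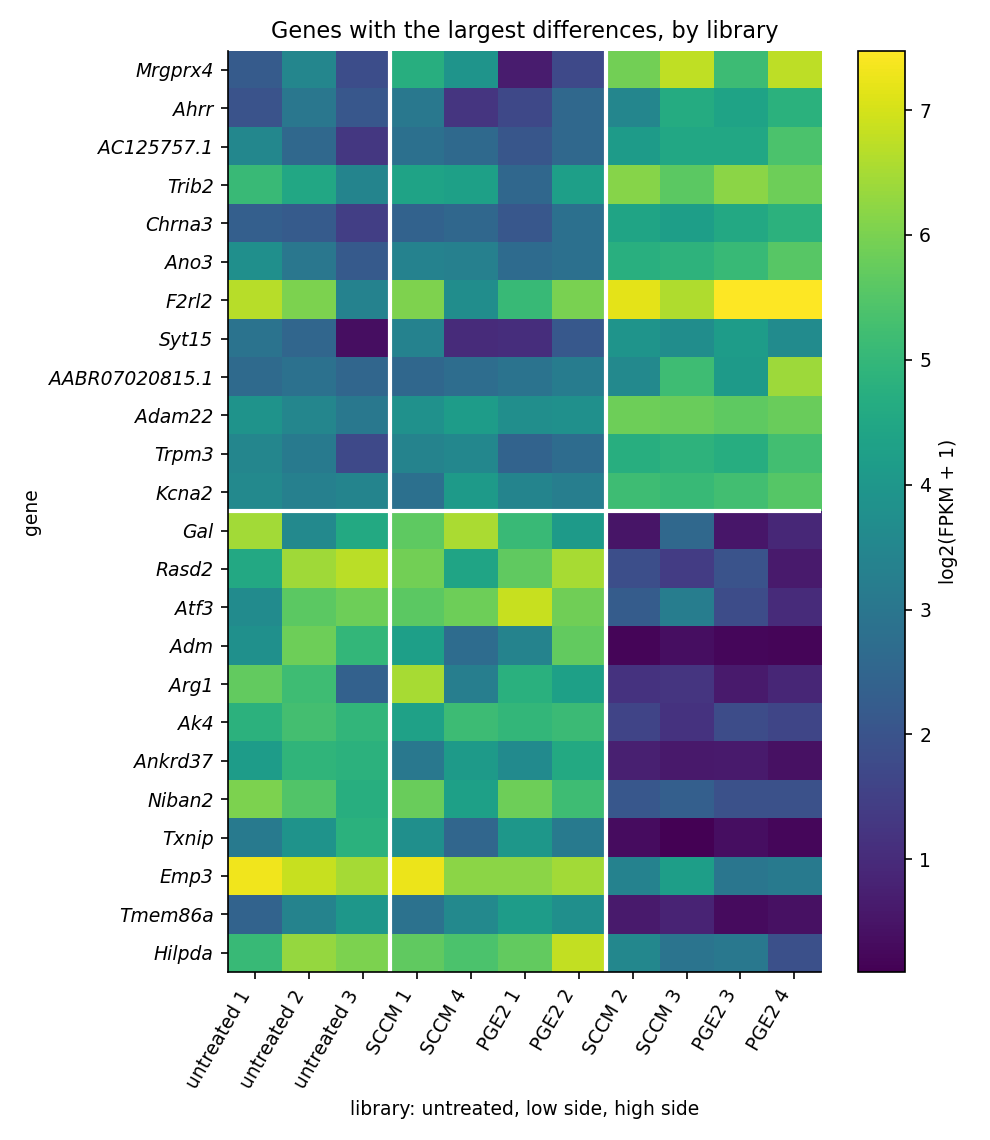
Log2(FPKM + 1), as colour, of the 12 genes called higher and the 12 called lower with the largest differences and a mean of at least 10 FPKM on their higher side, in each of the 11 libraries ordered as untreated, low side and high side. Untreated libraries resemble the low side in most rows, and Gal and Adm are near 0 in most high-side libraries.

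The untreated libraries took no part in the selection and lay near the low side on the called genes. All 3 lay below every high-side library for 152 of the 170 genes called higher (89.4%, against 11.5% of all tested genes). All 3 lay above every high-side library for 652 of the 692 called lower (94.2%, against 30.7%). Called genes were kept because their high-side libraries lay wholly apart from the low side. That choice can itself raise both shares, so all tested genes are not a matched baseline for them. How much of each share comes from the choice was not tested, and the shares are a description. On a scale with the low mean at 0 and the high mean at 1, the median position of the untreated mean was −0.094 for genes called higher and −0.12 for genes called lower. Untreated replicate 2 had the most Scn10a of the 3 (31.76 FPKM) and also the most Adm (56.52 FPKM). It was the highest untreated library for 37 of the 170 genes called higher (21.8%, against 28.3% of all genes) and the lowest for 67 of the 692 called lower (9.68%, against 14.2%).

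Whether the high minus low difference itself differed between SCCM and PGE2 was tested with limma as an interaction. The sides came from Scn10a, whose own difference was 0.91 in SCCM and 1.78 in PGE2. For genes that follow Scn10a, a different size in each treatment can thus come from the split itself. At an adjusted p under 0.05 the interaction called 0 of 11970 genes (0%). At an unadjusted p under 0.05 there were 244 genes, 92 with the more positive difference in SCCM and 152 in PGE2. That count was under 1 in 20 of the genes tested, the share that chance gives. Single libraries moved this count: leaving out SCCM replicate 1 gave 1084 genes and leaving out PGE2 replicate 3 gave 900, whereas leaving out SCCM replicate 3 gave 118 and leaving out PGE2 replicate 4 gave 147. The lowest adjusted p was 1. Junb, among the 6 genes with the lowest p, measured 9.56 and 10.63 FPKM on the high side and 33.58 and 15.40 FPKM on the low side in SCCM, and 3.04 and 1.38 FPKM against 33.28 and 62.84 FPKM in PGE2. Its difference was −1.10 in SCCM and −3.92 in PGE2. Sprr1a differed by −3.90 in SCCM and −2.13 in PGE2. LOC100910557, AABR07001923.1, AABR07001592.2 and AABR07028816.1 completed these 6.

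SCCM was also compared with PGE2 with side in the model, since each side holds both treatments equally. Limma called 1 gene of 11970 (0.00835%), Sbno2, a transcriptional co-regulator. It measured 9.62 and 12.66 FPKM in high-side SCCM cultures, 11.54 and 17.91 FPKM in low-side SCCM cultures, 1.56 and 0.99 FPKM in high-side PGE2 cultures and 1.48 and 2.69 FPKM in low-side PGE2 cultures. SCCM was higher by 2.38 (SE 0.20, limma adjusted p = 0.0125), and higher in 4 of 4 SCCM libraries than in any PGE2 library. Its difference between the sides was −0.39 (SE 0.20). The call was lost with no filter on low values (adjusted p = 0.124), without SCCM replicate 2 (0.0629) or 3 (0.104), and without PGE2 replicate 1 (0.0937), 3 (0.0682) or 4 (0.11). At an unadjusted p under 0.05 there were 848 genes, 583 higher and 265 lower in SCCM, against 359 without side in the model and 525 without PGE2 replicate 1. The next lowest limma adjusted p were 0.0899 for the chemokine gene Ccl2 (2.66, SE 0.32), for the Notch target Hes1 (1.69, SE 0.22) and for the TGF-beta feedback gene Pmepa1 (1.58, SE 0.20). Amigo1 (0.93, SE 0.13) and Adgra1 (2.15, SE 0.31) followed. Ccl2 measured 54.25 and 76.29 FPKM in high-side and 32.80 and 14.30 FPKM in low-side SCCM cultures, and 13.34 and 6.90 against 1.53 and 3.85 FPKM in PGE2 cultures.

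The receptors of PGE2 were not called between the sides. Ptger1 (EP1) differed by 0.17 (SE 0.21), Ptger2 (EP2) by 0.35 (SE 0.51), Ptger3 (EP3) by 0.40 (SE 0.27) and Ptger4 (EP4) by −0.29 (SE 0.29). In each of them the sides overlapped. Ptger2 ranged from 2.24 to 8.22 FPKM on the high side and from 1.08 to 7.14 FPKM on the low side. The prostacyclin receptor gene Ptgir, at 1.06 (SE 0.33), was also not called, since SCCM replicate 1 (130.18 FPKM) exceeded PGE2 replicate 4 (85 FPKM).

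The genes whose level followed Scn10a most closely over the 8 treated libraries, by Pearson correlation of log2(FPKM + 1), were Rtn4rl1 (r = 0.995), Rexo2 (0.987) and Scn11a (0.985). Those most opposed were Slc2a13 (−0.993) and Sec23a (−0.987). Apart from Scn11a they were chosen after their values were seen. The 8 points are the libraries that made the sides, so these values are a description.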

How the data were processed

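Bulk poly-A RNA sequencing of 11 libraries (RNA integrity number above 8, per the labels) was used as the table of FPKM values deposited by the authors. Per the submitters' processing notes the build was Rnor_6.0, and for the aligner, counting tool and annotation the sources used here give no name. Of the table, 22076 rows held values. Members, gene lists (39) and sides were chosen with earlier results of these data known.

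Genes reaching a mean of 1 FPKM in the 8 treated libraries were fitted as log2(FPKM + 1) with limma 3.58.1 (R 4.3.3), which understates differences of low genes. The model held treatment and side, and gave a size and SE without p-value for the sides. Interaction and SCCM minus PGE2 used two-sided moderated tests with an intensity trend and Benjamini-Hochberg adjustment, checked on simulated data. Where nothing else separates cultures, p-values measure only the spread between pregnant rats. Named genes were up to 12 called at each end with at least 10 FPKM on the higher side, up to 4 called per list (or up to 2 otherwise), up to 6 with the lowest p per test, and fixed sodium channel, PGE2 receptor and marker genes. A few genes that the rule names are not reported here. Alternatives were a pseudocount of 0.1, other filters and scalings, other model terms and leaving out each library. Deviations of same-numbered SCCM and PGE2 libraries correlated at 0.493, −0.504, 0.423 and −0.13 over genes for replicates 1 to 4. The values were positive for replicates 1 and 3, whose libraries share a side, and negative for 2 and 4, whose libraries do not. The correlations thus cannot show whether same-numbered cultures are paired, and the numbers were not taken as pairs. Tables and figures used Python 3.11.15, pandas 2.3.3 and matplotlib 3.10.9.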

Additional observations from a re-analysis of the deposited data

Results flagged for a closer look

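Within each side of 4 libraries, the highest or lowest library was compared with the rest, and a gap to its neighbour that took a larger share of the side's range than Dixon's critical value was taken as standing apart. Of 268 groups of values, 13 had such a library, which is about as many as chance gives (1 in 20), so the values that follow are listed as a description.

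SCCM replicate 3 was the lowest of the high side in mitochondrially encoded genes, with 3.71% of FPKM against 7.86 to 8.14% in the others, Mt-nd6 at 451.71 FPKM against 1132.3 to 1203.23 FPKM and Mt-nd5 at 414.74 FPKM against 1022.68 to 1054.9 FPKM. It was also the highest of its side for Nts at 17.94 FPKM, for the prostaglandin E synthase gene Ptges at 1.95 FPKM and for Adm at 0.29 FPKM.

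SCCM replicate 4 was the extreme library of the low side in several values. Its 10 most abundant genes held 11.97% of FPKM against 6.70 to 7.23%, and its summed fibroblast and meningeal list, which includes the neuronal gene Thy1, was 223.83 FPKM against 862.89 to 986.56 FPKM. The collagen gene Col6a2 was low at 2.93 FPKM, as was Phlda1 at 11.67 FPKM.

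PGE2 replicate 1 was low for Trib2 at 4.93 FPKM and PGE2 replicate 2 high for Sdf2l1 at 22.71 FPKM. PGE2 replicate 3 had the least relative depth of its side, at 1.20 against 1.29 to 1.30.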

How the results depend on the processing

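Genes called higher between the sides numbered 170, and 385 with median-ratio scaling, 348 with quantile normalization, 302 without both SCCM libraries nearest the threshold (an alternative chosen after seeing the data) and 151 to 265 when each library was left out. Genes called lower numbered 692, and 408 with a filter at 5 FPKM, 411 with median-ratio scaling, 379 with quantile normalization, 1123 without both libraries nearest the threshold and 586 to 1061 when each library was left out, the highest without SCCM replicate 4. The interaction called 0 genes under every alternative run. SCCM minus PGE2 with side called 1 gene, 0 with no filter, 2 with median-ratio scaling, 2 with quantile normalization, 0 without both libraries nearest the threshold, and 0 to 3 when each library was left out. With a replicate block, which takes same-numbered libraries as pairs, 175 genes were called higher and 779 lower (137 and 618 shared with the fit without it), and the tests called 0 and 1. No difference of a named gene changed from a called value to the opposite sign under the alternatives run. FPKM without read totals gives no counting error, so values under 1 FPKM, such as Adm on the high side, are the least precise.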
